A study of Mus musculus with 12 samples.

Results

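Cspg4, Rgs5, Kcnj8, Abcc9, Higd1b and Mcam are genes widely used to mark pericytes, and all 6 were found by their symbols in both deposited tables, as 6 of 40760 genes. They were followed in bulk RNA-seq of lung cells sorted by flow cytometry for CD140a, the protein of Pdgfra, from male mice of 8 to 12 weeks on the C57BL/6 background, where the study asked how loss of Pear1 alters lung mesenchyme in bleomycin-induced fibrosis. The 12 libraries formed 4 groups of 3, wild-type (WT) or Pear1-/- mice given either vehicle or bleo. Pear1-/- mice carried a knockout-first allele in which a gene-trap cassette truncates the Pear1 transcript in every cell, and bleomycin (bleo), a drug that injures the lung, was given as an aerosol into the trachea. The dose and day of these libraries, the nature of the vehicle and the number of mice behind a library were not given in the labels, so that p-values measure only the spread between these libraries, which may be technical.

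Pericytes are contractile support cells that lie inside the basement membrane of capillaries and venules, wrapped around the endothelium. Endothelial cells recruit them through PDGF-B, which acts on PDGF receptor beta on the pericyte. They regulate capillary tone and permeability, and in fibrosis they have been discussed as one source of matrix-producing cells. Kcnj8 encodes Kir6.1, the pore subunit, and Abcc9 encodes SUR2, the regulatory subunit, of the ATP-sensitive potassium channel that relaxes mural cells (pericytes and vascular smooth muscle). Rgs5 shortens signalling through G protein-coupled receptors, Higd1b encodes a small protein of the mitochondrial HIG1 family, Cspg4 encodes the surface proteoglycan NG2, and Mcam encodes the adhesion molecule CD146, which endothelial cells also carry. Lung pericytes are typically rich in PDGF receptor beta and poor in PDGF receptor alpha, the protein used for this sort.

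Kcnj8 and Abcc9 are neighbours in the genome. In GRCm38 with GENCODE M21, Kcnj8 (ENSMUSG00000030247) lies on chromosome 6 from 142564837 to 142571614 and Abcc9 (ENSMUSG00000030249) from 142587862 to 142702315. Both are on the minus strand, 16247 bases apart, with 0 annotated genes between them. Cspg4 (ENSMUSG00000032911) and Mcam (ENSMUSG00000032135) are both on the plus strand of chromosome 9, from 56865033 to 56899870 and from 44134469 to 44142727. Rgs5 (ENSMUSG00000026678) lies on chromosome 1 from 169655501 to 169695813 and Higd1b (ENSMUSG00000020928) on chromosome 11 from 102835849 to 102838040, both on the plus strand. Abcc9 overlaps 5330439B14Rik and Mcam overlaps Gm10687, each on the opposite strand. These partners had at most 8 and at most 14 counts in any library, and no strand setting of the counting was given.

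The sequences before the starts of Kcnj8, Abcc9 and Cspg4 are shown because the first 2 are the neighbouring channel genes, which fell together with bleo but moved in opposite directions between the bleo groups, while Cspg4 was the member that rose with bleo. The windows were taken from RefSeq starts in GRCm38.p6, where 5 of the 6 members matched, and each is printed 5′ to 3′ on the gene's strand up to the start in either annotation. They run over chr6:142571615-142571864 for Kcnj8, chr6:142702316-142702524 for Abcc9 and chr9:56864854-56865032 for Cspg4. Capitals mark the letters of any of 7 motifs searched on both strands, namely CCAAT (the CCAAT box), TATAAA (the TATA box), TGGGAA (the core bound by RBPJ, the Notch effector), TGTTTAC (forkhead), ACGTG (the core of the hypoxia response element), GGGCGG (the GC box) and CATTCC (TEAD).
Kcnj8: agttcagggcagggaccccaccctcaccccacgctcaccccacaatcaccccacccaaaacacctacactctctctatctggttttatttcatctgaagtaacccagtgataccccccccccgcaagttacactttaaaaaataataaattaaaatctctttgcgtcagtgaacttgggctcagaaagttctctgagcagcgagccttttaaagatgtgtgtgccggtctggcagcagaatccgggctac
Abcc9: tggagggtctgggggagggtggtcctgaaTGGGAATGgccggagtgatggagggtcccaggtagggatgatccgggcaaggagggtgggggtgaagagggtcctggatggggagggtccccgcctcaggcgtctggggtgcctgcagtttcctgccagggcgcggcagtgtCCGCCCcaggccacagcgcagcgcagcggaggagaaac
Cspg4: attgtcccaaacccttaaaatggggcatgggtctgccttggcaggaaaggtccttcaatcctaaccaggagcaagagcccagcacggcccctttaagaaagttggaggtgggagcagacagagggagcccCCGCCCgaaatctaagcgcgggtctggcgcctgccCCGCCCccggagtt

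In the 250 bases before the RefSeq start, Kcnj8 held none of the 7 motifs, with 49.2% G and C. Abcc9 held TGGGAA 221 bases before its start, overlapped by CATTCC read on the other strand, and 1 GC box 79 bases before it, with 66.8% G and C. Cspg4 held 2 GC boxes, 120 and 85 bases before its start, and Mcam held 5. Rgs5 held 1 CCAAT box, read on the other strand, 67 bases before its start. Of 32851 promoter windows of this length, 32.7% held GGGCGG, 33.8% CCAAT, 21.6% TGGGAA, 16.6% ACGTG, 12.6% CATTCC, 12.4% TATAAA and 3.17% TGTTTAC. A match in this window is a description of letters and not of a bound site.

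The libraries held between 6702948 and 10447101 counts. Among vehicle libraries Pdgfra, the gene of the sorting antigen, averaged 4565 ± 325 normalized counts for WT and 4165 ± 39.1 for Pear1-/-, and among bleo libraries 1360.1 ± 29.9 and 2392 ± 18.8 (SD, n = 3). Pear1 itself averaged 547 ± 28.8 and 519.7 ± 24.02 with vehicle, and 254 ± 13.99 and 357 ± 14.2 with bleo, WT first (SD, n = 3), so that its counts did not show the loss that the genotype labels name. A count per gene does not separate exons on either side of the cassette, and genotype is given throughout as the library was labelled. WT vehicle replicate 2 stood apart from the rest of its group. The chi-square of its counts was divided by the degrees of freedom, so that sampling noise alone gives 1. It was 21.2 and 21.8 against WT vehicle replicates 1 and 3, but between 1.73 and 2.67 against the 3 libraries labelled Pear1-/- vehicle. Those 3 libraries differed from one another by 1.44, 4.31 and 4.82, and libraries within a bleo group by between 1.35 and 1.49. WT vehicle replicates 1 and 3 differed from each other by 1.58, and counts were found on 35472 and 35884 genes in them, against between 21621 and 29845 genes in the other 10 libraries. Whether this library carries the right label was not tested, and each genotype comparison, with or without it, depends on the labels. Changes of the pericyte genes against WT vehicle, and counts of gene lists against it, are therefore given with and without replicate 2.

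Set per exonic length, the members fell into a high and a low group in the vehicle libraries. In TPM, which sets the counts per exonic length and scales them to a fixed total (40452 genes had a length), Kcnj8 had 71.2 ± 4.80 in WT vehicle, Abcc9 had 31.0 ± 1.24 and Mcam had 21.8 ± 2.93 (SD, n = 3). Higd1b had 4.74 ± 0.933, Rgs5 had 2.74 ± 1.22 and Cspg4 had 2.10 ± 0.812 TPM in the same libraries. Pdgfra itself had 115.8 ± 23.0 TPM and Pdgfrb 66.7 ± 5.31. Rgs5, Higd1b and Cspg4, which serve as defining pericyte markers, were at no more than 5.84 TPM in any library. In Pear1-/- bleo Abcc9, at 5.48 to 7.18 TPM, came close to Cspg4, at 4.03 to 4.98 TPM. Mean TPM fell from Kcnj8 to Abcc9 to Mcam in both vehicle groups, and after bleo Mcam came before Abcc9, at 16.0 against 8.63 in WT bleo and 19.7 against 6.27 in Pear1-/- bleo. In bulk samples, fewer cells of a type and less RNA per cell cannot be told apart.

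**Figure D1:**
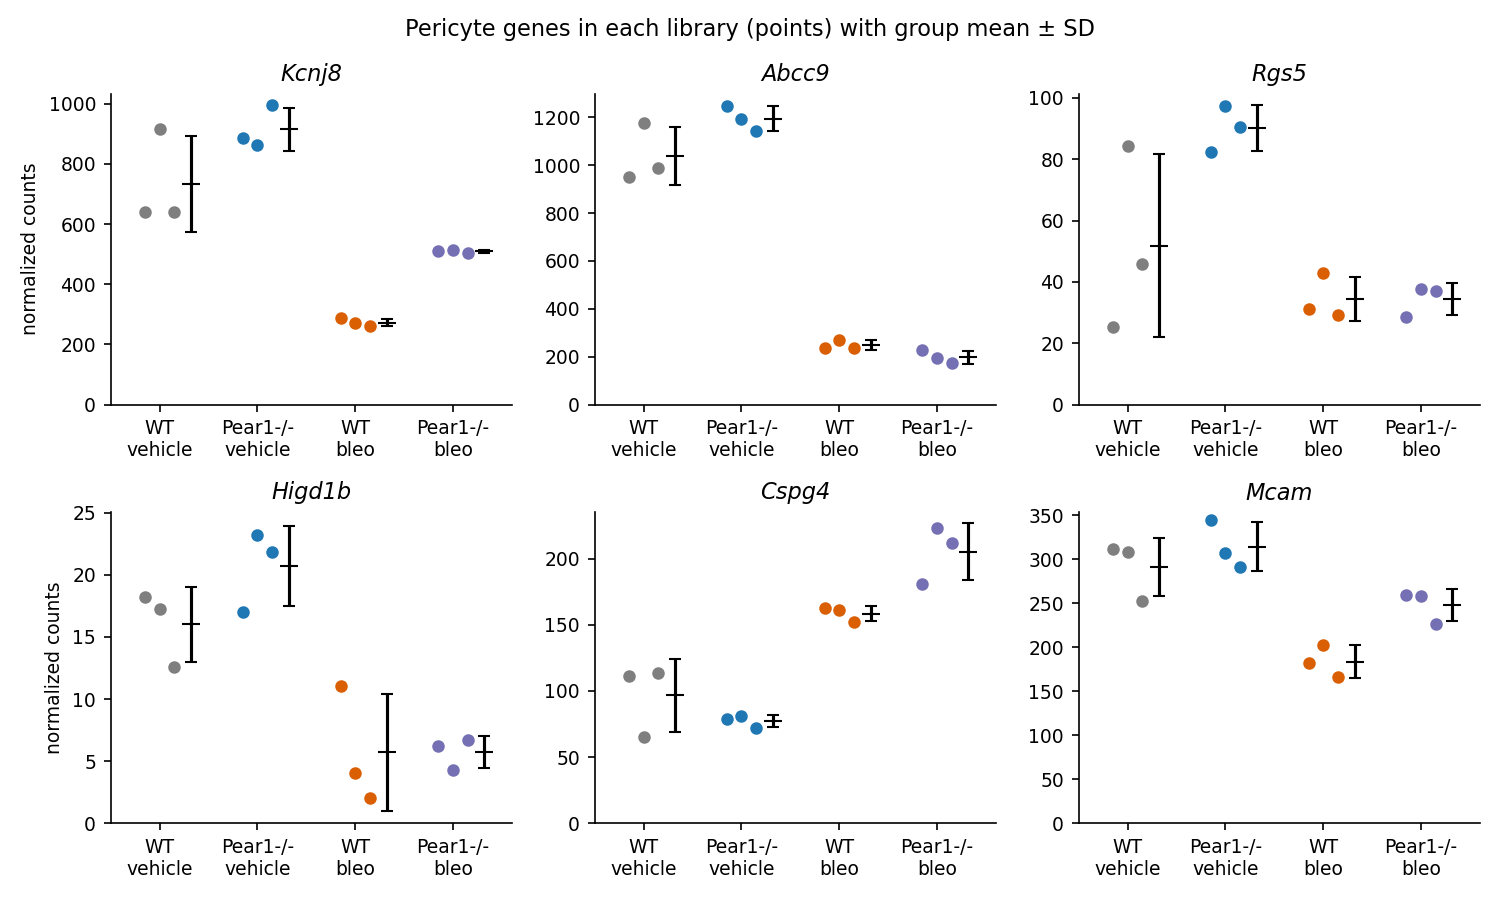
Normalized counts (vertical axis, from 0) of the 6 pericyte genes in each of the 12 libraries, by group (horizontal axis), with points for libraries and bars for the group mean ± SD (n = 3). Kcnj8, Abcc9, Higd1b and Mcam were lower and Cspg4 was higher in the 3 bleo libraries of each genotype than in its 3 vehicle libraries, and WT vehicle replicate 2 had the highest Kcnj8, Abcc9 and Rgs5 of its group.

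With bleo, 4 of the 6 genes fell and Cspg4 rose in WT, and 5 fell and Cspg4 rose in the libraries labelled Pear1-/-. A gene was called at an adjusted p under 0.05 in edgeR's quasi-likelihood test over 17418 genes, all 6 members among them. The background was broad, since 36.5% of all tested genes were called lower and 31.4% higher in WT bleo than in WT vehicle, and 33.1% lower and 29.1% higher in Pear1-/- bleo than in Pear1-/- vehicle. The members had a median log2 fold change of -1.03 for WT and -1.11 for Pear1-/-, beside -0.07 and -0.05 over all tested genes. The direction of each called change was the same with every other normalization tried.

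Abcc9, the regulatory channel subunit, fell most with all libraries in the fit. It had 951, 1176 and 989 normalized counts in WT vehicle and 237, 271 and 237 in WT bleo, replicates 1 to 3 in order. Those labelled Pear1-/- had 1245, 1192 and 1142 with vehicle and 226, 193 and 173 with bleo. Every bleo library was far below every vehicle library. The log2 fold change with bleo was -2.05 in WT (standard error 0.101, edgeR adjusted p = 1.48e-12), which is 4.15-fold lower. It was -2.59 in the libraries labelled Pear1-/- (standard error 0.103, edgeR adjusted p = 8.85e-14), which is 6.01-fold lower. Without WT vehicle replicate 2 the fall in WT was -1.89 on the log2 scale.

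Kcnj8, the pore subunit, fell less, and less in the libraries labelled Pear1-/-. It had 642, 916 and 639 normalized counts in WT vehicle and 287, 270.2 and 262 in WT bleo. Those labelled Pear1-/- had 886, 864 and 997 with vehicle and 509.7, 515 and 505 with bleo. The 3 groups from Pear1-/- vehicle to Pear1-/- bleo to WT bleo were separate, and WT vehicle lay between the first and the second with replicate 2 inside the range of Pear1-/- vehicle. The log2 fold change with bleo was -1.41 in WT (standard error 0.114, edgeR adjusted p = 4.35e-09), which is 2.66-fold lower, and -1.15 without WT vehicle replicate 2. It was -0.84 in the libraries labelled Pear1-/- (standard error 0.108, edgeR adjusted p = 2.63e-06), which is 1.79-fold lower.

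The ratio of the channel genes changed accordingly. For each Abcc9 count, WT vehicle had 0.6999 ± 0.0701 Kcnj8 counts and Pear1-/- vehicle had 0.77004 ± 0.0901, whereas WT bleo had 1.104 ± 0.107 and Pear1-/- bleo had 2.61 ± 0.341 (SD, n = 3). The ratio lay between 0.646 and 0.874 in the 6 vehicle libraries, between 0.996 and 1.21 in WT bleo and between 2.25 and 2.93 in Pear1-/- bleo. The vehicle groups overlapped and the 2 bleo groups did not. A ratio within a library does not depend on the normalization, and a rise of it shows unequal change of the 2 genes only.

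Rgs5, the regulator of G protein signalling, fell with bleo in the libraries labelled Pear1-/-. It had 82.4, 97.4 and 90.6 normalized counts in Pear1-/- vehicle and 28.4, 37.8 and 37.2 in Pear1-/- bleo, a log2 fold change of -1.38 (standard error 0.283, edgeR adjusted p = 0.000418). In WT it had 25.5, 84.2 and 45.8 normalized counts with vehicle and 31.2, 42.8 and 29.4 with bleo. The WT groups overlapped, and the log2 fold change of -0.60 (95% interval from -1.25 to 0.05, edgeR adjusted p = 0.0917) did not pass the test. That value depended on single vehicle libraries: it was 0.01 without WT vehicle replicate 2 (edgeR adjusted p = 0.963) and -0.91 without WT vehicle replicate 1 (edgeR adjusted p = 0.00428). With total counts as the only scaling it was -0.67 (edgeR adjusted p = 0.0478).

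Higd1b was the most sparsely counted member. It had 15, 17 and 11 raw counts in WT vehicle and 12, 4 and 2 in WT bleo, the last under the detection floor of 3 counts. In the libraries labelled Pear1-/- it had 18, 25 and 20 raw counts with vehicle and 7, 5 and 7 with bleo. After normalization the vehicle and bleo libraries of a genotype did not overlap, with 16.0 ± 2.997 and 5.71 ± 4.71 for WT, and 20.7 ± 3.23 and 5.73 ± 1.26 for Pear1-/- (SD, n = 3). The log2 fold change was -1.43 in WT (standard error 0.483, edgeR adjusted p = 0.0139) and -1.83 among those labelled Pear1-/- (standard error 0.459, edgeR adjusted p = 0.00196). In WT the adjusted p rose to 0.064 without WT bleo replicate 2 and to 0.0821 without WT bleo replicate 3, with log2 fold changes of -1.197 and -1.002, and without WT bleo replicate 1, the library with 12 counts, the log2 fold change was -2.30. The log2 fold change was -1.29 without WT vehicle replicate 2.

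The surface proteins moved in opposite directions. Cspg4 had 112, 64.9 and 113 normalized counts in WT vehicle and 163, 161 and 152 in WT bleo. The Pear1-/- libraries had 78.6, 80.7 and 72.0 with vehicle and 181, 223 and 212 with bleo. All 6 bleo libraries were above all 6 vehicle libraries. The log2 fold change was 0.74 in WT (standard error 0.163, edgeR adjusted p = 0.000553), a 1.67-fold rise, and 1.41 in the libraries labelled Pear1-/- (standard error 0.160, edgeR adjusted p = 3.64e-07), a 2.66-fold rise. Without WT vehicle replicate 2, which had the lowest Cspg4 of its group, the rise in WT was 0.57 on the log2 scale.

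Mcam had 312, 308 and 253 normalized counts in WT vehicle and 182, 203 and 166 in WT bleo, a log2 fold change of -0.65 (standard error 0.110, edgeR adjusted p = 3.74e-05). The Pear1-/- libraries had 345, 307 and 291 with vehicle and 259, 258 and 227 with bleo, a log2 fold change of -0.34 (standard error 0.105, edgeR adjusted p = 0.00889). The bleo libraries lay below the vehicle libraries in both genotypes. The fall in WT was -0.54 on the log2 scale without WT vehicle replicate 2. The call in the libraries labelled Pear1-/- was lost without Pear1-/- vehicle replicate 1 (-0.29 on the log2 scale, edgeR adjusted p = 0.0578) and without Pear1-/- bleo replicate 3 (-0.29, edgeR adjusted p = 0.0569).

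**Figure D2:**
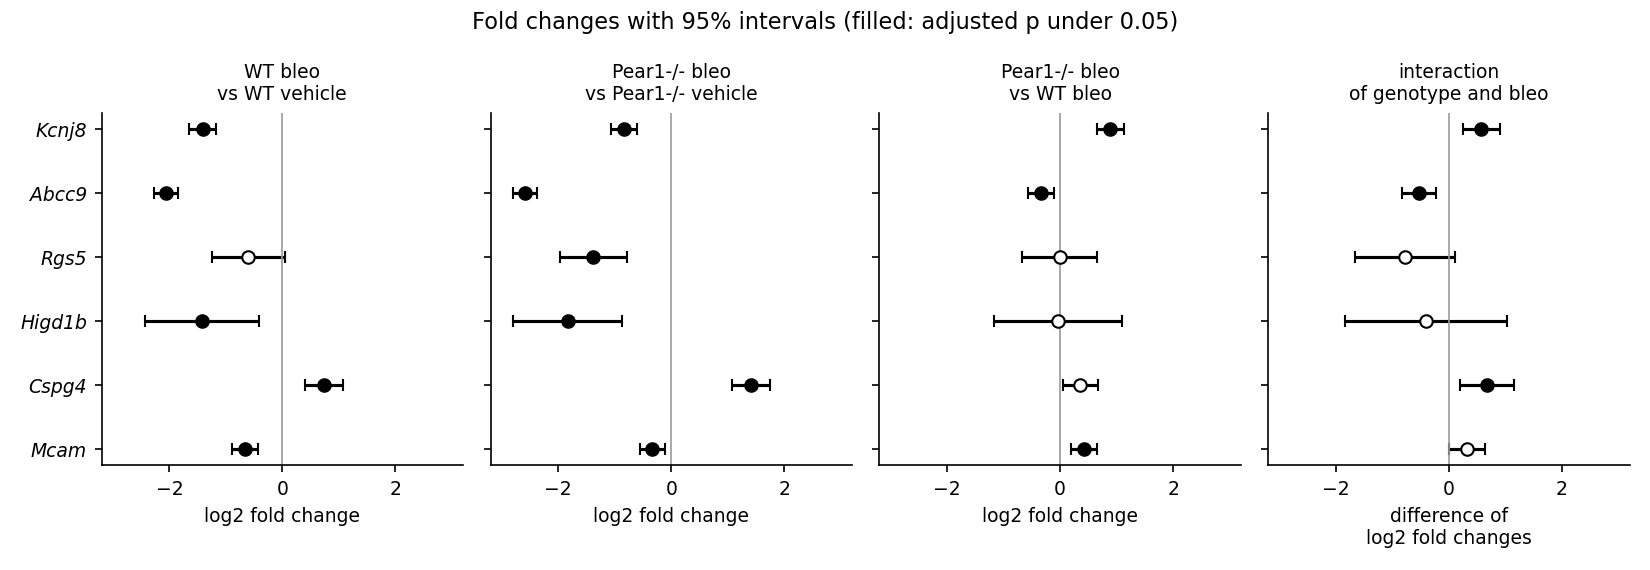
Log2 fold changes (points) with 95% intervals (bars) of the 6 pericyte genes in 4 comparisons, the last being the interaction (a difference of log2 fold changes), in panels with a common horizontal axis from edgeR's fit of all 12 libraries, filled where the adjusted p was under 0.05. In both bleo panels Cspg4 lies to the right and Kcnj8, Abcc9, Higd1b and Mcam lie to the left of 0, and between the bleo groups Kcnj8 (0.89) and Mcam (0.42) lie to the right and Abcc9 (-0.34) to the left.

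Between the bleo groups, 2 of the 6 genes were higher and 1 was lower in the libraries labelled Pear1-/-, in a background where 22.1% of all tested genes were called higher and 24% lower. Kcnj8 differed most, by a log2 fold change of 0.89 (standard error 0.114, edgeR adjusted p = 4.44e-06), or 1.85-fold. Mcam was higher by 0.42 on the log2 scale (standard error 0.110, edgeR adjusted p = 0.00382). Abcc9 was lower by a log2 fold change of -0.34 (standard error 0.107, edgeR adjusted p = 0.0135). The Abcc9 call was lost without WT bleo replicate 2 (edgeR adjusted p = 0.105) and without Pear1-/- bleo replicate 2 or 3 (edgeR adjusted p = 0.0667 and 0.128), with log2 fold changes of -0.29, -0.34 and -0.26. The Abcc9 values of the groups did not overlap, at 237 to 271 normalized counts in WT bleo and 173 to 226 in Pear1-/- bleo.

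Cspg4 was above all WT bleo libraries in each library labelled Pear1-/- bleo, with a log2 fold change of 0.36 (95% interval from 0.05 to 0.67) and an edgeR adjusted p = 0.0511 that just missed the threshold. It passed with DESeq2's scaling in edgeR (adjusted p = 0.0473) and with no filter on low counts (edgeR adjusted p = 0.0257). It also passed in a fit of these 2 groups alone (edgeR adjusted p = 0.00045) and without Pear1-/- bleo replicate 1 (0.43 on the log2 scale, edgeR adjusted p = 0.0407). The fit of these 2 groups alone called 4956 of 14922 tested genes higher and 4892 lower. In the other 9 of 13 alternative fits Cspg4 did not pass, with edgeR adjusted p up to 0.202 when 1 library was left out. Rgs5 (log2 fold change -0.01, 95% interval from -0.68 to 0.66) and Higd1b (-0.04, from -1.17 to 1.09) did not pass the test. The members' median was 0.17, beside -0.01 over all tested genes.

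Between the vehicle groups, none of the 6 genes was called with all 12 libraries in the fit, against 1.95% of all tested genes called higher and 5.29% lower in Pear1-/- vehicle, and with total counts as the only scaling 139 genes were higher and 2049 lower in place of 340 and 921. Rgs5 had a log2 fold change of 0.77 (95% interval from 0.19 to 1.35, edgeR adjusted p = 0.0795) and Kcnj8 of 0.31 (from 0.09 to 0.54, edgeR adjusted p = 0.0681), and these 2 had an unadjusted edgeR p under 0.05 (0.0126 and 0.00888). Abcc9 differed by 0.19, Higd1b by 0.36, Mcam by 0.11 and Cspg4 by -0.32 on the log2 scale, with edgeR adjusted p between 0.159 and 0.558. DESeq2's Wald test and limma on log2 normalized values also called 0 of the 6. With no filter on low counts edgeR called 3, namely Rgs5, Kcnj8 and Abcc9, in a fit with 2283 of 40760 genes higher and 3393 lower. Blocking on replicate number, edgeR called Rgs5 (0.83, edgeR adjusted p = 0.0426), with 418 of 17418 genes higher and 838 lower. All 6 genes overlapped between the groups, and overlap over all tested genes was not counted.

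The vehicle comparison turned on 1 library. WT vehicle replicate 2 had 84.2 normalized counts of Rgs5, 916 of Kcnj8, 1176 of Abcc9 and 64.9 of Cspg4, against 25.5 and 45.8, 642 and 639, 951 and 989, and 112 and 113 in the other 2 libraries. Each of these values lay with those labelled Pear1-/- vehicle or beyond them, rather than with its own group. Without it, 4 of the 6 genes were called, with log2 fold changes of 1.39 for Rgs5 (edgeR adjusted p = 4.04e-07), 0.58 for Kcnj8 (3.03e-09), 0.37 for Abcc9 (2.08e-05) and -0.47 for Cspg4 (0.00694). In that fit 5213 of 20405 tested genes were higher and 6068 lower (25.5% and 29.7%), so that calls were common over all genes as well. Without any other vehicle library, 0 of the 6 genes were called, with between 2961 and 5876 of all genes at an unadjusted edgeR p under 0.05 and 0 called.

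**Figure D3:**
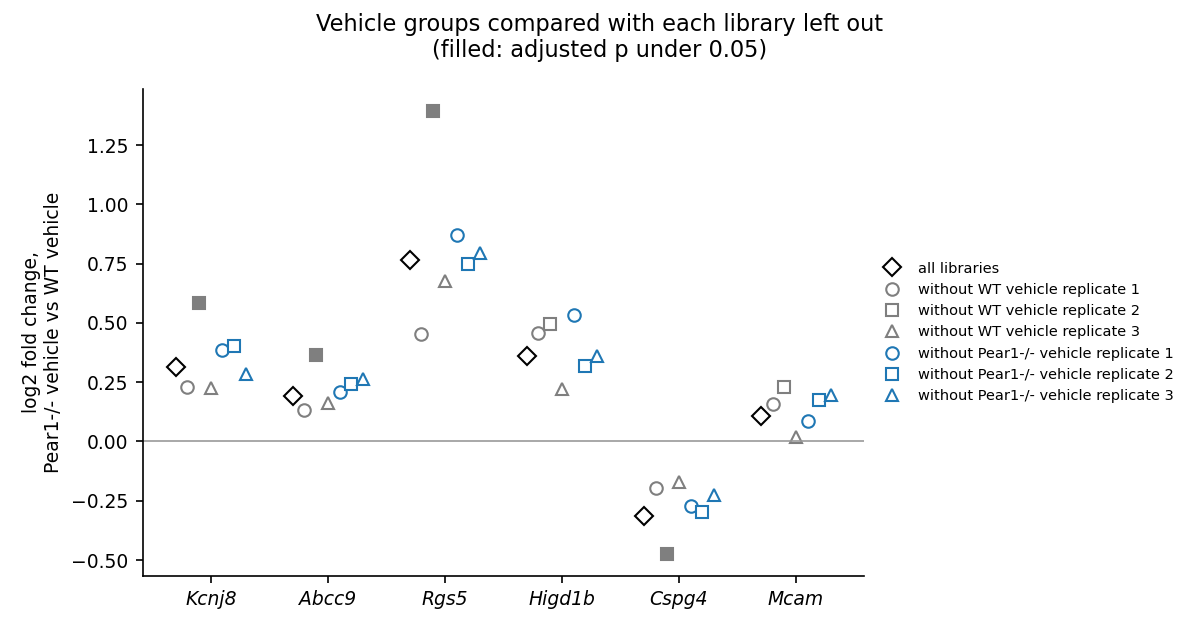
Log2 fold change between Pear1-/- vehicle and WT vehicle (vertical axis) of each pericyte gene with all libraries (diamonds) and with each vehicle library left out in turn (other symbols, as in the key), filled where the edgeR adjusted p was under 0.05. The filled symbols are those without WT vehicle replicate 2, at 1.39 for Rgs5, 0.58 for Kcnj8, 0.37 for Abcc9 and -0.47 for Cspg4.

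A differing response to bleo was tested as the interaction, which is the log2 fold change with bleo for Pear1-/- minus that for WT. Over all tested genes, 17.8% were called higher and 19.3% lower in this test, with 4069 higher and 2509 lower with total counts as the only scaling in place of 3109 and 3353. Among the pericyte genes, 2 were called higher and 1 lower. Kcnj8 had an interaction of 0.57 (standard error 0.157, edgeR adjusted p = 0.00788), a smaller fall in the libraries labelled Pear1-/-. Cspg4 had 0.68 (standard error 0.230, edgeR adjusted p = 0.0267), a larger rise. Abcc9 had -0.53 (standard error 0.142, edgeR adjusted p = 0.00603), a larger fall, so that the neighbouring channel genes differed in opposite directions.

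The Abcc9 interaction passed in each of the 12 fits that left out 1 library, with values from -0.72 to -0.48 and edgeR adjusted p of at most 0.0277. The Kcnj8 interaction passed in 5 of these 12 fits. It was lost without any one of Pear1-/- vehicle replicates 1 and 2, WT bleo replicates 2 and 3 and Pear1-/- bleo replicates 1, 2 and 3 (edgeR adjusted p from 0.0518 to 0.0772), and without WT vehicle replicate 2 it was 0.29 (edgeR adjusted p = 0.0181). The Cspg4 interaction passed in 2 of the 12 fits, those without WT vehicle replicate 2 (0.82 on the log2 scale) and without Pear1-/- bleo replicate 1. It was lost without any one of the other 10 libraries (from 0.53 to 0.65 on the log2 scale, edgeR adjusted p from 0.0542 to 0.0944) and with DESeq2's Wald test (adjusted p = 0.0628) and limma (adjusted p = 0.0545).

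For Rgs5 the interaction was -0.78 (95% interval from -1.66 to 0.11, edgeR adjusted p = 0.162), and without WT vehicle replicate 2 it was -1.41 (edgeR adjusted p = 0.000155). It passed also with no filter on low counts (-0.84, edgeR adjusted p = 0.0387). Higd1b (-0.40, from -1.84 to 1.03) and Mcam (0.32, from -0.003 to 0.63) did not pass. Mcam passed without WT vehicle replicate 3 (0.40, edgeR adjusted p = 0.0435) and with total counts as the only scaling (0.46, edgeR adjusted p = 0.0243).

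Ordered by mean normalized counts, Abcc9 ran from Pear1-/- vehicle to WT vehicle to WT bleo to Pear1-/- bleo, and Kcnj8 and Mcam ran from Pear1-/- vehicle to WT vehicle to Pear1-/- bleo to WT bleo. Cspg4 ran in the reverse order of Abcc9. Rgs5 and Higd1b were highest in Pear1-/- vehicle, then in WT vehicle, with bleo means of 34.5 in either genotype for Rgs5 and of 5.71 and 5.73 for Higd1b. With all libraries in the fit, the 2 vehicle groups, neighbours in each of these orders, overlapped for each of the 6 genes. The bleo groups overlapped for Rgs5 and Higd1b, and did not for Cspg4 although its adjusted p missed the threshold. Overlaps over all tested genes were not counted. WT vehicle and Pear1-/- bleo, neighbours for Kcnj8 and Mcam, were not tested against each other. They overlapped for Mcam and not for Kcnj8. Over the 12 libraries, the log2 CPM of Kcnj8 had a Pearson correlation of 0.93 with Mcam and 0.80 with Abcc9, and Cspg4 had -0.94 with Abcc9. These libraries share the 4 groups, and the correlations are descriptions of that shared structure.

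Among 10454 genes whose mean log2 CPM reached 3, the genes most like Kcnj8 over the 12 libraries were Slc10a6, Htra1 and Mustn1 (Pearson correlations of 0.996, 0.994 and 0.993). Those most like Abcc9 included Aox3 and Ptgfr (0.999 and 0.997). Cspg4 was most like Fam20b, 2610001J05Rik and Tnc (0.978, 0.976 and 0.974), the last the matrix glycoprotein tenascin C. Rgs5 was most like Phf8, Tmem154 and Ifi205 (0.970, 0.965 and 0.962). Higd1b was most like Rnf146, Pcdh18 and Chrnb1 (0.948, 0.935 and 0.934) and Mcam was most like Alg11, Sdc4 and Axin2 (0.963, 0.955 and 0.954).

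A list of 26 other pericyte and mural genes, of which 25 were tested, fell with bleo in most of its members. In WT bleo, 18 were lower and 3 higher than in WT vehicle, with a median log2 fold change of -1.09, which are 72% and 12% of the list beside 36.5% and 31.4% of all tested genes. In Pear1-/- bleo, 16 were lower and 5 higher than in Pear1-/- vehicle, with a median of -0.45, or 64% and 20% beside 33.1% and 29.1% of all tested genes. Of 26 tested without WT vehicle replicate 2, 20 were lower and 4 higher in WT, in a fit where 44.7% of all tested genes were lower and 31.7% higher. The members lower in both genotypes included the transcription factors Ebf1 (-0.90 and -1.54 on the log2 scale) and Ebf2 (-1.93 and -3.24). The Notch target Heyl (-1.76 and -1.96), the laminin chain Lamc3 (-2.31 and -3.16) and vitronectin, Vtn (-2.44 and -4.48), were others. Vtn was near the floor of 3 counts in Pear1-/- bleo, with at most 4 in any library, and had at most 10 in WT bleo. Ndufa4l2 (-1.35 and -1.69) and Cox4i2 (-1.70 and -2.04), mitochondrial proteins of pericytes and hypoxic cells, fell in both as well. Art3 fell in WT (-1.09), and Trpc6, a cation channel, rose in the libraries labelled Pear1-/- (0.82).

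The endothelin receptor Ednra fell, with log2 fold changes of -1.24 for WT and -0.45 for Pear1-/-. The angiotensin receptor Agtr1a, at 2.02 to 6.43 normalized counts in WT bleo, had -2.24 and -1.59, and -1.40 for WT without WT vehicle replicate 2 (edgeR adjusted p = 0.0117). The subunits of soluble guanylate cyclase, the nitric oxide receptor, fell by less, with -0.74 and -0.40 for Gucy1a1 and -1.02 and -0.42 for Gucy1b1. Pdgfrb, the receptor through which pericytes are recruited, had a log2 fold change with bleo of -0.44 in WT (edgeR adjusted p = 6.12e-05), a fall. In the libraries labelled Pear1-/- it had 0.48, a rise (edgeR adjusted p = 2.74e-05). Anpep went the other way, with 0.51 for WT and -0.56 for Pear1-/-, and P2ry14 rose in both (0.60 and 0.68).

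**Figure D4:**
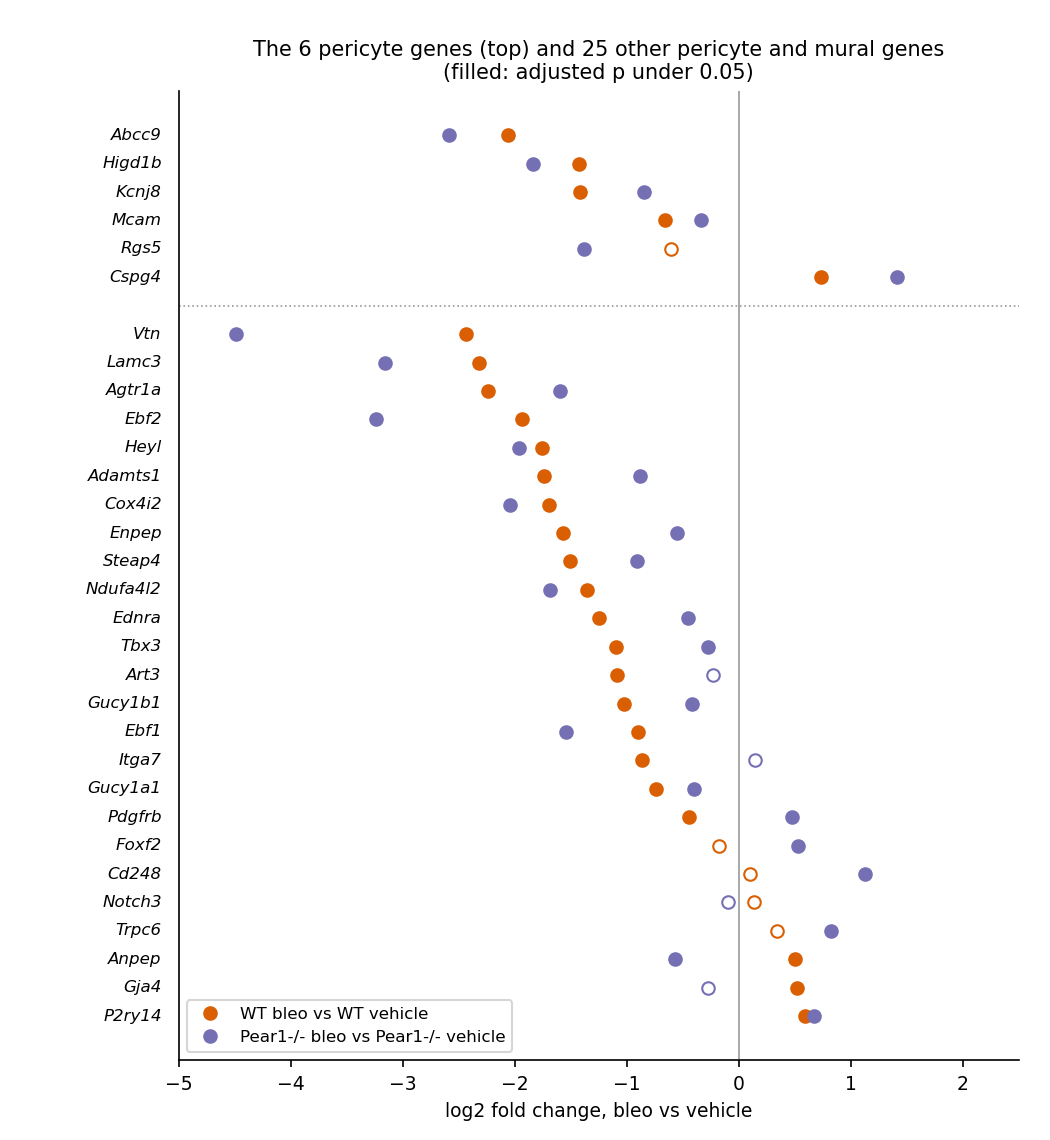
Log2 fold change with bleo (horizontal axis) by genotype label for the 6 pericyte genes (above the dotted line) and the 25 tested genes of the other pericyte and mural list (below it), filled where the edgeR adjusted p was under 0.05. Most points lie to the left of 0, with 18 of the 25 called lower in WT and 16 of 25 in the libraries labelled Pear1-/-.

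Between the bleo groups, 9 of these 25 genes were higher and 6 lower in the libraries labelled Pear1-/-, with a median log2 fold change of 0.29. Those higher were Cd248 (1.26), Pdgfrb (1.10), Adamts1 (0.97), Steap4 (0.88), Tbx3 (0.83), Ednra (0.67), Foxf2 (0.44), Enpep (0.37) and Gucy1b1 (0.37). Those lower were Vtn (-1.97), Lamc3 (-0.89), Anpep (-0.82), Notch3 (-0.76), Gja4 (-0.63) and Ebf1 (-0.39). Vtn had at most 4 counts in any Pear1-/- bleo library. Cd248 encodes endosialin, which activated fibroblasts also carry, and Notch3 is the Notch receptor of mural cells. These counts are 36% and 24% of the list, beside 22.1% and 24% of all tested genes called higher and lower. Between the vehicle groups, 0 were higher and 2 lower, Enpep (-0.64, edgeR adjusted p = 0.0307) and Itga7 (-0.71, edgeR adjusted p = 0.0469). Over all tested genes 1.95% were higher and 5.29% lower. Of 26 tested without WT vehicle replicate 2, 9 were higher and 6 lower, beside 25.5% and 29.7% of all tested genes. In the interaction 11 were higher and 6 lower (44% and 24% of the list, beside 17.8% and 19.3% of all tested genes), or 13 and 7 without that library, beside 20.4% and 26% of all tested genes.

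Of 13 genes of the signals that recruit and hold pericytes, 3 were higher and 7 lower with bleo in WT, and 4 higher and 7 lower in the libraries labelled Pear1-/-. These are 23.1% and 53.8% and then 30.8% and 53.8% of the list, where 31.4% and 36.5% and then 29.1% and 33.1% of all tested genes were called. The counts in WT were 3 higher and 6 lower without WT vehicle replicate 2, beside 31.7% and 44.7% of all tested genes. Pdgfb, the recruiting ligand itself, had the largest change of the list in WT and was chosen after its values were seen. Among WT libraries it averaged 25.5 ± 9.36 normalized counts with vehicle and 268 ± 11.7 with bleo, and among those labelled Pear1-/- 38.3 ± 5.90 and 68.3 ± 5.57 (SD, n = 3). The log2 fold change of Pdgfb with bleo was 3.37 for WT and 0.84 for Pear1-/-, and between the bleo groups it was -1.98 (edgeR adjusted p = 2.8e-09). Sphk1 and S1pr1, the kinase that makes sphingosine 1-phosphate and a receptor for it, had log2 fold changes of 0.33 and -0.85 in WT, and of 1.15 and -1.11 among those labelled Pear1-/-. The TGF-beta receptor Tgfbr2 had -0.18 in WT, which passed the test, and 0.07 in the libraries labelled Pear1-/-, which did not. The call in WT was lost without WT vehicle replicate 2, where Tgfbr2 had -0.097 (edgeR adjusted p = 0.0903). Cxcl12 was higher in Pear1-/- bleo than in WT bleo by 0.73 on the log2 scale. Between the bleo groups 7 of the 13 were higher and 4 lower, which are 53.8% and 30.8% beside 22.1% and 24% of all tested genes. Between the vehicle groups 0 were called, beside 1.95% of all tested genes higher and 5.29% lower, or 7 higher and 1 lower without WT vehicle replicate 2, beside 25.5% and 29.7%. In the interaction 5 were higher and 3 lower, beside 17.8% and 19.3%, or 4 and 5 without that library, beside 20.4% and 26%.

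Of 15 relatives and partners of the pericyte genes, 14 were in the table and 11 were tested, with 5 higher and 2 lower in WT bleo, and 7 higher and 4 lower in Pear1-/- bleo, each against its vehicle. These are 45.5% and 18.2% and then 63.6% and 36.4% of those tested, beside 31.4% and 36.5% and then 29.1% and 33.1% of all tested genes. Of 13 tested without WT vehicle replicate 2, 5 were higher and 4 lower in WT, beside 31.7% and 44.7% of all tested genes. The relatives of Rgs5 that were called rose in WT, with log2 fold changes with bleo of 1.22 for Rgs2 and 1.05 for Rgs16. In the libraries labelled Pear1-/- Rgs2 (0.81), Rgs16 (1.44) and Rgs3 (0.70) rose and Rgs4 (-1.11) fell. Higd1a, the relative of Higd1b, rose with log2 fold changes of 0.25 for WT and 0.42 for Pear1-/-, and Higd2a with 0.75 and 0.60. Kcnj11 and Abcc8, the channel subunits of pancreatic beta cells, were not tested with all libraries in the fit. Kcnj11 had at most 1 count in any library. Abcc8 had between 2.03 and 28.6 normalized counts in WT vehicle and at most 3.27 in Pear1-/- vehicle, and after bleo it had 0 counts in all 6 libraries, which allows up to 3 counts in each. Without WT vehicle replicate 2 Abcc8 was tested and was called lower in WT bleo than in WT vehicle (edgeR adjusted p = 6.47e-10) and in Pear1-/- vehicle than in WT vehicle (edgeR adjusted p = 4.07e-07). Kcnj2, another potassium channel, had 0.36 for WT, which did not pass, and fell in the libraries labelled Pear1-/- (-1.21). Lgals3 and Lama4, a galectin and a laminin chain that are partners of the surface proteins, had 2.52 and -1.89 in WT and 1.86 and -1.25 in the libraries labelled Pear1-/-. Bcam fell in both (-0.44 and -0.41), and Alcam rose in the libraries labelled Pear1-/- (0.38). Between the bleo groups 4 of the 11 were higher and 3 lower, which are 36.4% and 27.3% beside 22.1% and 24% of all tested genes. Between the vehicle groups 0 were called, beside 1.95% of all tested genes higher and 5.29% lower, or 3 higher and 3 lower without WT vehicle replicate 2, beside 25.5% and 29.7%. In the interaction 4 were higher and 4 lower, beside 17.8% and 19.3%, or 4 and 5 without that library, beside 20.4% and 26%.

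Markers of other cells moved across the same groups, and their part in the results above was not tested. Counts of markers called stand beside all tested genes, of which 31.4% were higher and 36.5% lower with bleo in WT, 29.1% and 33.1% with bleo in the libraries labelled Pear1-/-, and 22.1% and 24% between the bleo groups. The summed level of the 6 pericyte genes was between 232 and 288 CPM (counts scaled to a fixed library total) in WT vehicle, 287 and 298 in Pear1-/- vehicle, 96.6 and 108.03 in WT bleo and 129.7 and 139 in Pear1-/- bleo. That of 12 leukocyte markers was between 2569 and 3338, 3262 and 3486, 14130 and 14306, and 6336 and 6563 CPM in the same order, with 10 of 12 higher and 1 lower in WT bleo than in WT vehicle, 8 higher and 2 lower in Pear1-/- bleo than in Pear1-/- vehicle, and 11 of 12 lower in Pear1-/- bleo than in WT bleo. That of 12 Pdgfra+ fibroblast markers was between 14482 and 16312, 16178 and 16906, 9562 and 9619, and 25158 and 26013 CPM. Of these, 10 were lower and 2 higher in WT bleo, 9 lower and 2 higher in Pear1-/- bleo, each against its vehicle, and 5 higher and 2 lower between the bleo groups. The fibroblast sum does not stand for each of its genes, since Col1a1 and Col1a2 had their highest mean in Pear1-/- bleo and the other 10 in a vehicle group. Of the leukocyte markers, 10 had their highest mean in WT bleo and 2 in Pear1-/- vehicle. When WT vehicle replicate 2 was left out, 11 leukocyte markers were higher and 1 lower in WT bleo than in WT vehicle, and 10 fibroblast markers were lower and 2 higher, beside 31.7% of all tested genes higher and 44.7% lower. Between the vehicle groups 7 leukocyte markers were then higher and 0 lower, and 6 fibroblast markers higher and 5 lower, beside 25.5% and 29.7% of all tested genes. With all libraries 0 leukocyte markers were called there, and 2 fibroblast markers were higher and 1 lower, beside 1.95% and 5.29%.

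Of 12 smooth muscle markers, some of which pericytes and myofibroblasts share, 9 were lower and 2 higher in WT bleo than in WT vehicle. In Pear1-/- bleo 4 were lower and 5 higher than in Pear1-/- vehicle, and 9 were higher and 1 lower than in WT bleo. The shares lower and higher were 75% and 16.7% in WT, beside 36.5% and 31.4% of all tested genes, and 33.3% and 41.7% in the libraries labelled Pear1-/-, beside 33.1% and 29.1%. Higher and lower between the bleo groups were 75% and 8.33%, beside 22.1% and 24%. In the interaction 8 were higher and 0 lower with or without WT vehicle replicate 2, beside 17.8% and 19.3% of all tested genes, or 20.4% and 26% without that library. With vehicle alone, 0 were called between the genotypes, beside 1.95% and 5.29%, or 3 higher and 1 lower without it, beside 25.5% and 29.7%. Without that library 8 were lower and 2 higher in WT bleo, beside 44.7% and 31.7%. Their summed level was between 894 and 945 CPM in WT vehicle, 887 and 1017 in Pear1-/- vehicle, 662 and 668 in WT bleo and 1813 and 1836 in Pear1-/- bleo. Acta2, which encodes smooth muscle actin, was at 349 ± 37.5 TPM in WT vehicle and 356 ± 6.85 in WT bleo (SD, n = 3). In the libraries labelled Pear1-/- it was at 290 ± 10.5 TPM with vehicle and 945 ± 6.10 with bleo (SD, n = 3). These levels were far above any pericyte gene.

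Of 12 endothelial markers, the cells next to pericytes, 10 were lower in WT bleo and 9 lower and 2 higher in Pear1-/- bleo, each against its vehicle, with summed levels between 591 and 676, 671 and 740, 372 and 389, and 395 and 420 CPM. Between the bleo groups, 4 were higher and 2 lower. In WT 83.3% of the list was lower, beside 36.5% of all tested genes, in the libraries labelled Pear1-/- 75% was lower and 16.7% higher, beside 33.1% and 29.1%, and between the bleo groups 33.3% was higher and 16.7% lower, beside 22.1% and 24%. Pecam1 had log2 fold changes of -0.54 for WT and -0.76 for Pear1-/-, beside -0.65 and -0.34 for Mcam. When WT vehicle replicate 2 was left out, 8 endothelial markers were lower in WT bleo, beside 44.7% of all tested genes, and 6 were higher and 0 lower between the vehicle groups, beside 25.5% and 29.7%, where 0 were called with all libraries. Of 10 epithelial markers, 7 were lower and 2 higher in WT bleo and 9 lower and 1 higher in Pear1-/- bleo, which are 70% and 20% and then 90% and 10% of the list, beside the same shares of all tested genes as for the smooth muscle markers. Their summed level was between 4432 and 6355 CPM in WT vehicle, 5981 and 7024 in Pear1-/- vehicle, 1719 and 1753 in WT bleo and 755 and 763 in Pear1-/- bleo. Of 8 glial and Schwann markers, cells that share Cspg4 with pericytes, 5 were tested, with 3 lower and 1 higher in WT bleo and 4 lower and 1 higher in Pear1-/- bleo, which are 60% and 20% and then 80% and 20% of those tested, while Cspg4 rose. Between the bleo groups 1 epithelial marker was higher and 7 lower (10% and 70%), and 0 glial markers were higher and 3 lower (60%), beside 22.1% and 24% of all tested genes. The counts in WT without WT vehicle replicate 2 were 7 lower and 2 higher for the epithelial list, and 5 lower and 2 higher of 7 tested for the glial list, beside 44.7% and 31.7% of all tested genes. With vehicle, 1 epithelial marker was higher in the libraries labelled Pear1-/- and 0 glial markers were called, beside 1.95% and 5.29% of all tested genes, or 5 higher and 2 lower, and 1 higher and 4 lower, without that library, beside 25.5% and 29.7%. In the interaction 0 of 12 leukocyte markers were higher and 11 lower, 0 of 10 epithelial markers higher and 7 lower, 0 of 5 glial markers higher and 3 lower, 2 of 12 endothelial markers higher and 2 lower, and 5 of 12 fibroblast markers higher and 2 lower, beside 17.8% and 19.3% of all tested genes. When WT vehicle replicate 2 was left out, these counts were 0 and 12, 0 and 7, 2 and 3 of 7 tested, 2 and 5, and 6 and 5, beside 20.4% and 26%. The summed level of the glial list was between 54.3 and 61.9 CPM in WT vehicle, 56.3 and 65.1 in Pear1-/- vehicle, 52.0 and 55.2 in WT bleo and 35.5 and 37.2 in Pear1-/- bleo.

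**Figure D5:**
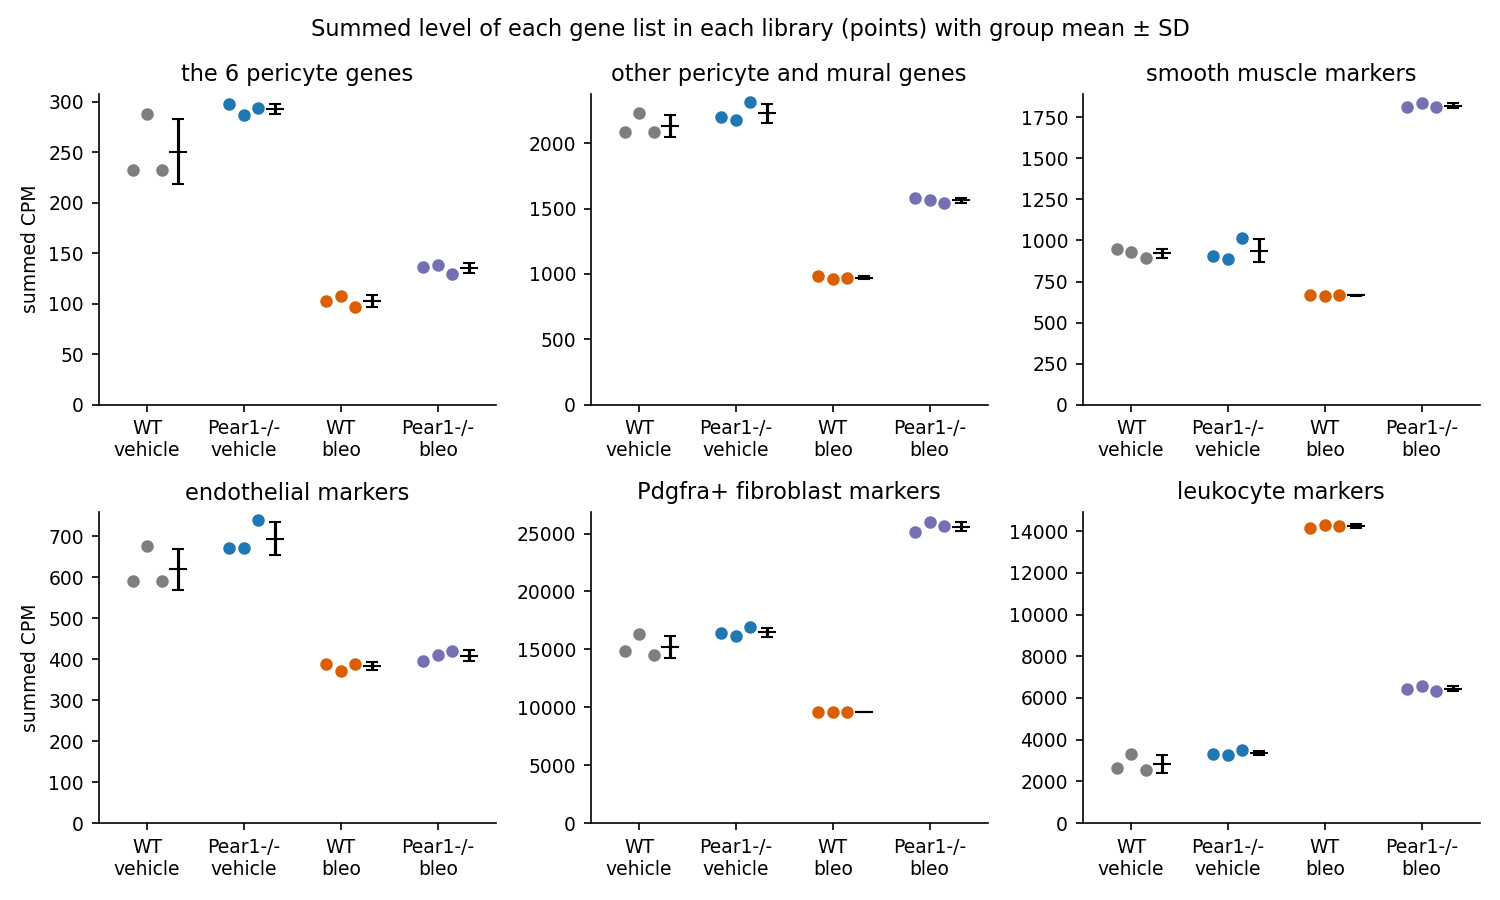
Summed CPM (vertical axes, from 0, with a scale of its own in each panel) of the 6 pericyte genes and of 5 marker lists in each of the 12 libraries, by group, with points for libraries and bars for the group mean ± SD (n = 3). The summed level of the pericyte genes is lower in both bleo groups than in both vehicle groups although Cspg4 rose, the sums of smooth muscle and fibroblast markers are highest in Pear1-/- bleo although 5 of 12 and 10 of 12 of them have their highest mean in a vehicle group, and that of leukocyte markers is highest in WT bleo.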

How the data were processed

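The 12 bulk RNA-seq libraries of sorted Pdgfra+ lung cells were placed in 4 groups of 3 by their deposited labels. Full-length cDNA was made with a kit for low amounts of RNA, and the authors aligned paired reads to GRCm38 with HISAT2. The authors deposited raw counts per gene, and the counting program is not given in the sources used here. The second table the authors deposited is a normalized signal, obtained when every count is divided by a DESeq2 size factor. This was checked in every library, where the size factors differed by at most 1.09e-10 of their value.

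Log2 fold changes, standard errors and two-sided adjusted p came from edgeR 4.0.16 (quasi-likelihood test, robust, TMM normalization, filterByExpr, a mean for each group, all 12 libraries, Benjamini-Hochberg adjustment over 17418 genes), and a gene was called at an adjusted p under 0.05. The library totals were between 6702948 and 10447101, where the floor of 3 counts is between 0.287 and 0.448 CPM, and floors cover counting error only. Alternatives were RLE normalization, total counts, no filter, DESeq2 1.42.0, limma 3.58.1 on log2(normalized count + 1), fits of the groups compared alone, each library left out and the replicate number as a block. Counts of list members under these settings, and list values without WT vehicle replicate 2, were added after seeing the data. For 38 duplicated symbols the identifier with the larger total was used. TPM was computed from counts and the merged exon lengths of GENCODE M21. All 6 pericyte genes were named. Called genes of the mural list and the relatives' list, the 4 most abundant genes of each other list and the 3 genes most correlated with each member, of which 1 is not reported here, could be named as examples. Kcnj11, Abcc8 and Pdgfb were named after their values were seen. The members and lists were chosen with earlier results of these data known.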

Additional observations from a re-analysis of the deposited data

Results flagged for a closer look

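For 3 of the 6 pericyte genes, the change with bleo in the libraries labelled Pear1-/- differed from that in WT in edgeR's test of the difference itself, 2 higher and 1 lower, in a background where 17.8% of all tested genes were called higher and 19.3% lower. The interaction log2 fold change was 0.57 for Kcnj8, where the fall was smaller in the libraries labelled Pear1-/-, and 0.68 for Cspg4, where the rise was larger. For Abcc9, the neighbour of Kcnj8, it was -0.53, where the fall was larger. In the same test 8 of 12 smooth muscle markers were higher and 0 lower, 11 of 12 leukocyte markers lower and 0 higher, and 7 of 10 epithelial markers lower and 0 higher, and their part in these values was not tested. With each library left out in turn, the call for Abcc9 was kept in 12 of 12 fits, with values from -0.72 to -0.48. That for Kcnj8 was kept in 5 of 12, with values from 0.29, without WT vehicle replicate 2, to 0.66. That for Cspg4 was kept in 2 of 12, with values from 0.53 to 0.82.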

How the results depend on the processing

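Of 419 values of the pericyte genes recomputed under the alternatives, 364 kept their direction and their side of the threshold, 26 no longer passed and 18 newly passed. The other 11 changed sign, 0 of them called in either fit. They were Mcam between the vehicle groups with total counts (-0.037), Rgs5 between the bleo groups with no filter (0.0038), DESeq2 (0.00098) and limma (0.0079), Higd1b between the bleo groups with limma (0.22), and values without single libraries, where Rgs5 ran from -0.91 to 0.014 for bleo in WT and from -0.12 to 0.16 between the bleo groups, and Higd1b from -0.44 to 0.86 between the bleo groups and from -0.85 to 0.45 in the interaction. With each library left out in turn, the number of the 6 genes called was between 4 and 6 for bleo in WT, 5 and 6 for bleo in the libraries labelled Pear1-/-, 2 and 4 between the bleo groups, 0 and 4 between the vehicle groups and 1 and 4 in the interaction. Over the 17644 to 20453 genes tested in these fits, 5200 to 6477 were higher and 6047 to 9120 lower for bleo in WT. The ranges were 4372 to 4648 and 5924 to 6257 for bleo in the libraries labelled Pear1-/-. Between the bleo groups they were 2994 to 3100 and 3511 to 3589. They were 0 to 5213 and 0 to 6068 between the vehicle groups, and 2418 to 4158 and 2978 to 5305 in the interaction. Between the vehicle groups, where 0 of the 6 genes were called, 3 of them were called with no filter on low counts. These were Rgs5, Kcnj8 and Abcc9, and the cause was not tested. With the replicate number as a block, 1 was called, Rgs5 (0.83, edgeR adjusted p = 0.0426). The deviations of same-numbered libraries from their group means had correlations between -0.161 and 0.0997 over 18 pairs, with 0 over 0.1, so the numbers were not taken to pair the samples, and the block changed no other call of the 6 genes. Over all genes, calls between the vehicle groups were 340 higher and 921 lower, 2283 and 3393 with no filter, 0 and 0 in a fit of these groups alone (3189 genes at an unadjusted edgeR p under 0.05), 204 and 619 with DESeq2's Wald test and 505 and 594 with limma. With no filter, calls with bleo in WT over all genes were 6396 higher and 13318 lower, against 5476 and 6358, and with DESeq2's Wald test 4957 and 10272. Without WT vehicle replicate 2 the interaction gave 4158 higher and 5305 lower, against 3109 and 3353. Total counts as the only scaling moved the median of all genes to -0.168 for bleo in WT, from -0.00394 to -0.15 between the vehicle groups and from -0.00120 to 0.15 in the interaction. The counts of other mural genes called stayed within 1.5 times the reported ones for both bleo comparisons, the bleo groups and the interaction under every alternative, while between the vehicle groups they ran from 0 to 9 higher and 0 to 6 lower. Depth limits Higd1b most, with between 2 and 25 counts per library.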
